A study of Mus musculus with 8 samples.

Results

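The nucleobindins are 2 genes, Nucb1 and Nucb2, of the 22183 in a table of estimated counts from mouse liver. They were taken as the rows whose symbol was Nucb2 or that of its paralog Nucb1. Nucb2 was chosen by its measured counts in the comparison reported here, where it was 1 of 4 genes past an adjusted p of 0.05, and Nucb1 entered as its paralog. All values of the 2 genes in that comparison are therefore given as a description, without a test. The table covers 8 libraries of whole liver from mice given 20% alcohol by daily gavage, 15 µL per g of body weight, for 2 weeks. The 4 control libraries came from Stat3flox/flox mice, in which both copies of Stat3 carry loxP sites, and the 4 knockout libraries from Stat3flox/flox;Alb-Cre mice, which also carry Cre recombinase under the albumin promoter, active in hepatocytes. Alcohol and the floxed alleles were shared by all 8, so genotype is the single contrast that the labels give. Only the knockout group carries Cre, so Cre itself and the loss of Stat3 cannot be told apart here. The labels give no age, sex or strain, and they number the samples within a genotype without saying that each is a separate animal. Errors therefore cover the spread between these samples, which may be technical in part.

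Nucleobindins are calcium-binding proteins with a signal peptide and a pair of EF-hand motifs. Nucleobindin-1, also called calnuc, resides mainly in the Golgi lumen, where it holds calcium, and it also binds G protein alpha subunits and has been described as a brake on cleavage of the stress sensor ATF6. Nucleobindin-2 is the precursor from which prohormone convertases release nesfatin-1, a peptide first described as a satiety signal in the hypothalamus and later studied for effects on glucose and lipid handling in liver.

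Both genes lie on chromosome 7, 71.0 Mb apart. In GENCODE release M21 (GRCm38), Nucb1 (ENSMUSG00000030824) spans 45490458 to 45510406 on the minus strand and Nucb2 (ENSMUSG00000030659) spans 116504369 to 116540584 on the plus strand. The principal coding sequences translate to 459 and 420 residues, with 61.4% identity over 414 aligned residues. No 50-base stretch of the principal Nucb2 transcript (1636 windows) occurred in an annotated transcript of any other gene, on either strand, and none of the 4804 windows of Nucb1 occurred in Nucb2. Of the Nucb1 windows, 3 occurred in another gene, Ptk6. The principal transcripts of the paralogs are thus separable from each other at that length. The gene Tulp2 overlaps Nucb1 on the opposite strand, and the use of strand in counting is not given in the sources used here. Tulp2 held 0 to 7 counts per library, against 1093 to 1851 for Nucb1. No gene with a row in the table overlapped Nucb2.

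The start regions of the paralogs are shown because they carry different sets of short promoter motifs. Each sequence runs 5′ to 3′ from 250 bases before the gene start to 50 after it, as RefSeq gives it for GRCm38.p6. Capitals mark CCAAT boxes (CCAAT or ATTGG) and the heat shock element core (TTCNNGAA). The Nucb1 window is chr7:45510359-45510658 on the minus strand, and the Nucb2 window is chr7:116504119-116504418 on the plus strand.
Nucb1: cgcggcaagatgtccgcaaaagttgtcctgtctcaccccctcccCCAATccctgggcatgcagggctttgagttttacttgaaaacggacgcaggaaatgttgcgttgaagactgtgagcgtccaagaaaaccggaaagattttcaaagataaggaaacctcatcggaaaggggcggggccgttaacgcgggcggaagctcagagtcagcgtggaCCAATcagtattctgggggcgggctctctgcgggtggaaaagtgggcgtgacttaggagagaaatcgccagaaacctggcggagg
Nucb2: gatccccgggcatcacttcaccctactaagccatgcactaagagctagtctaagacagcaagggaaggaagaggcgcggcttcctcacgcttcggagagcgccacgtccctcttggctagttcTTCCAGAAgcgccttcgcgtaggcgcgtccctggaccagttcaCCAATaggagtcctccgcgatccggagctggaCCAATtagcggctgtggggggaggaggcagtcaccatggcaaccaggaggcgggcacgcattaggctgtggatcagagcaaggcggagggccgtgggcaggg
Counted from the gene start, the CCAAT boxes began at positions −206 and −35 in Nucb1 and at −84 and −52 in Nucb2. Of 32851 RefSeq windows of the same length, 37.4% held at least 1 CCAAT box. The GC box (GGGCGG or CCGCCC) was found 3 times in Nucb1 and not in Nucb2, against 35.7% of all windows. The heat shock core stood at −127 in Nucb2 and was not in Nucb1, against 8.52% of all windows; this motif was searched after the letters had been seen, and it overlapped none of the others. Neither window held the palindrome TTCNNNGAA bound by STAT dimers, which 8.30% of windows held, nor its variant with 1 more base in the spacer, which 6.95% held. With 1 base fewer in the spacer, the STAT palindrome becomes TTCNNGAA, the letters of the heat shock core at −127 in Nucb2. That match is not counted as a STAT site here, and binding of any factor to it was not tested. Neither window held an E-box (CACGTG). The TATA box, searched as TATAAA, was in neither window. The same was true of the half-site of the cAMP response element, which was searched as TGACGT, and of the ER stress element. All motifs were searched on both strands, and a match or its absence describes these letters alone.

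The libraries held 15998394 to 19474699 counts each, and 11692 genes were tested after a filter on low counts, both nucleobindins among them. All 10 hepatocyte markers listed, such as Alb and Cps1, were detected. The targeted gene Stat3 was at 75.1, 72.9, 46.8 and 72.1 CPM (counts relative to the scaled library size) in controls 1 to 4 and at 27.3, 25.1, 29.7 and 28.4 CPM in knockouts 1 to 4. Y-linked reads were found in controls 3 and 4 and knockouts 2, 3 and 4, and not in controls 1 and 2 or knockout 1 beyond 5 counts. Mitochondrially encoded transcripts took 12.9 to 20.7% of counts in control and 19.7 to 22.2% in knockout.

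Nucb2, the nesfatin-1 precursor gene, was low in knockout liver. Controls 1 to 4 gave 178, 84, 98 and 134 counts for the gene, whereas knockouts 1 to 4 gave 37, 11, 19 and 35. In CPM these were 7.66, 5.96, 5.84 and 6.69 in control and 1.95, 0.743, 1.14 and 1.82 in knockout. Every knockout library lay below every control library, and the gap between the highest knockout and the lowest control was larger than the range within either group. The group means were 6.54 ± 0.838 CPM and 1.42 ± 0.572 CPM (SD, n = 4 each). The fitted log2 fold change was −2.19 (SE 0.30, 95% interval −2.85 to −1.53), a level 4.56-fold lower in knockout with an interval of 2.89 to 7.19. Its adjusted p of 0.0469 in edgeR's quasi-likelihood test is the value by which the gene was chosen. Of the 11692 genes, 0.0342% passed that threshold, all of them lower in knockout (Saa2, Saa1, Nucb2 and Stat3). Groups did not overlap in 7.08% of the genes tested, with knockout the lower in 3.86%, and 0.428% had a log2 fold change as low as that of Nucb2 or lower.

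Relative to their mean, the values of Nucb2 were more scattered in knockout than in control, whereas the SD in CPM was smaller in knockout (0.572 against 0.838). The SD was 12.8% of the mean in control and 40.4% in knockout. Counting error alone would give 8.998% at the mean control count and 19.8% at the mean knockout count. The lowest library, knockout 2, rests on 11 counts, with an exact Poisson 95% interval of 5.49 to 19.7, and the lowest control library on 84 counts, with an interval of 67.0 to 104. These intervals cover counting error only.

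Nucb1, the Golgi calcium-binding paralog, was at similar levels in the 2 genotypes. It held 72.7, 77.7, 68.8 and 92.4 CPM in controls 1 to 4 and 61.2, 73.9, 84.7 and 79.1 CPM in knockouts 1 to 4. The groups overlapped: 3 of the knockout libraries lay within the control range, and knockout 1 lay below it. The means were 77.9 ± 10.3 and 74.7 ± 10.02 CPM (SD, n = 4 each). The fitted log2 fold change was −0.06 (SE 0.16), and its 95% interval of −0.41 to 0.29 spans folds of 0.751 to 1.22. A smaller change of Nucb1 within its interval cannot be told apart from none with these libraries.

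**Figure D1:**
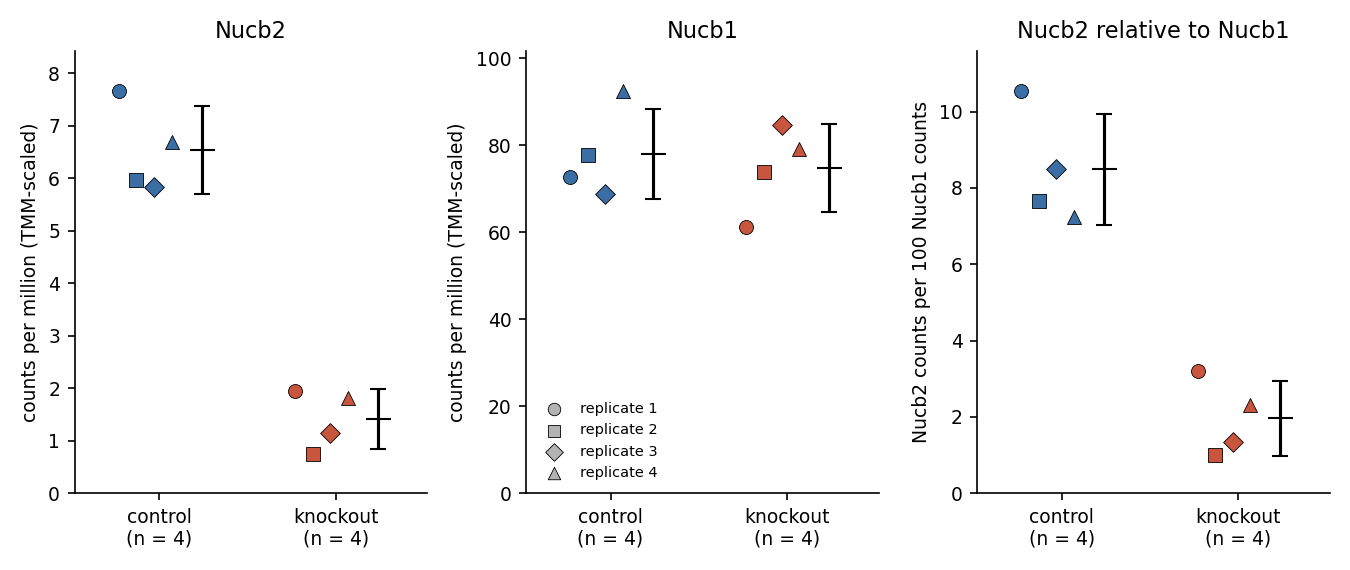
Level of Nucb2 (left) and Nucb1 (middle) in CPM, and Nucb2 counts per 100 Nucb1 counts (right), in each of 4 control and 4 knockout libraries; the marker shape gives the replicate number, and bars give the mean ± SD. The Nucb2 values of knockout (0.743 to 1.95 CPM) lie below those of control (5.84 to 7.66 CPM), whereas the Nucb1 values overlap.

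The ratio of the paralogs within a library does not depend on how libraries are scaled. Nucb2 held 10.5, 7.66, 8.48 and 7.24 counts per 100 Nucb1 counts in controls 1 to 4. In knockouts 1 to 4 it held 3.19, 1.01, 1.35 and 2.30. The groups did not overlap in this ratio, with means of 8.48 ± 1.47 and 1.96 ± 0.986 (SD, n = 4 each), and the difference of mean log2 ratios was −2.24. The ratio rests on the Nucb2 counts by which the gene was chosen, so it is no separate result. Because Nucb1 is the more abundant, the summed level of the 2 genes was 74.7 to 99.1 CPM in control and 63.2 to 85.9 CPM in knockout, and these ranges overlapped. Nucb2 supplied 6.75 to 9.53% of that sum in control and 0.996 to 3.09% in knockout.

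Per length of transcript, Nucb1 was the higher of the paralogs in every library. Scaled by their principal transcripts (4853 and 1685 bases), Nucb1 was at 16.1 ± 2.13 and Nucb2 at 3.88 ± 0.497 CPM per kb in control, and at 15.4 ± 2.07 and 0.840 ± 0.339 CPM per kb in knockout (SD, n = 4 each). The per-length level of Nucb1 was 3.29 to 4.80 times that of Nucb2 in control libraries and 10.9 to 34.5 times in knockout libraries. Nucb1 also has a coding transcript of 2111 bases, and with that length the ratios were 7.57 to 11.0 and 25.003 to 79.3. Scaled by the union of all exons of each gene, they were lower, at 2.69 to 3.92 in control and 8.89 to 28.2 in knockout. Among 11668 tested genes ranked by CPM per kb, Nucb2 stood at percentiles 52.5 to 59.3 in control and 13.0 to 28.0 in knockout. Nucb1 stood at 79.8 to 83.5 and 78.8 to 82.5.

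Other features of the libraries were set beside Nucb2. Among libraries with Y-linked reads, Nucb2 was at 5.84 and 6.69 CPM in 2 controls and at 0.743, 1.14 and 1.82 CPM in 3 knockouts. Among those without, it was at 7.66 and 5.96 CPM in 2 controls and 1.95 CPM in 1 knockout. The log2 fold change was −2.31 in the libraries with Y-linked reads alone, and −2.13 with their presence as a term over all 8. The order within each class follows from the lack of overlap over all 8 libraries and is no separate result. The class without Y-linked reads held 1 knockout library only.

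Whole liver holds several cell types, and in such bulk samples fewer cells of a type and less RNA per cell cannot be told apart. All 8 Kupffer cell and macrophage markers had negative log2 fold changes (median −1.90, 7 at an unadjusted p under 0.05 against 14.0% of all genes, 0 past the adjusted threshold), and their summed level was 25.8 to 443 CPM in control and 47.0 to 85.0 CPM in knockout. The lowest Kupffer sum of the 8 libraries, 25.8 CPM, was that of control 3, with 5.84 CPM of Nucb2, and the other 3 controls had sums above every knockout. Lymphocyte markers (4 of 8 tested) summed to 10.8 to 22.6 CPM in control and 57.3 to 580 CPM in knockout without overlap. The markers did not all differ in the same direction. The B-lineage genes Ighm (log2 fold change 4.81, SE 0.78), Igkc (3.06, SE 0.57) and Cd79a (1.41, SE 0.48) had positive values, and Gzma, a granzyme of cytotoxic lymphocytes, a negative one (−2.61, SE 0.91). None of the 4 passed the adjusted threshold. The part of the Kupffer cell or lymphocyte markers in the Nucb2 values was not tested. Of 8 stellate cell markers, 4 did not overlap and were higher in knockout, against 7.08% of all genes without overlap in either direction; 2 of the 8, Rgs5 (−0.23) and Pdgfrb (−0.01), had negative log2 fold changes. The marker sums overlapped, with ranges of 194 to 320 CPM in control and 247 to 426 CPM in knockout. Sums of sinusoidal endothelial markers (71.0 to 158 and 133 to 151 CPM) and cholangiocyte markers (39.4 to 157 and 41.9 to 60.1 CPM) overlapped, as did those of neutrophil markers (1.49 to 4.33 and 0.946 to 5.55 CPM). Islets and fat, tissues in which Nucb2 is well known, left little trace: Ins1, Ins2 and Iapp, and Adipoq, Plin1 and Lep, were at 0 counts in all 8 libraries. The sums of the whole lists were 3.05 to 7.99 and 6.34 to 16.8 CPM for the 8 pancreatic genes, 6 of them at 0, and 7.96 to 20.8 and 10.2 to 15.9 CPM for the 6 adipocyte genes, 3 of them at 0.

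**Figure D2:**
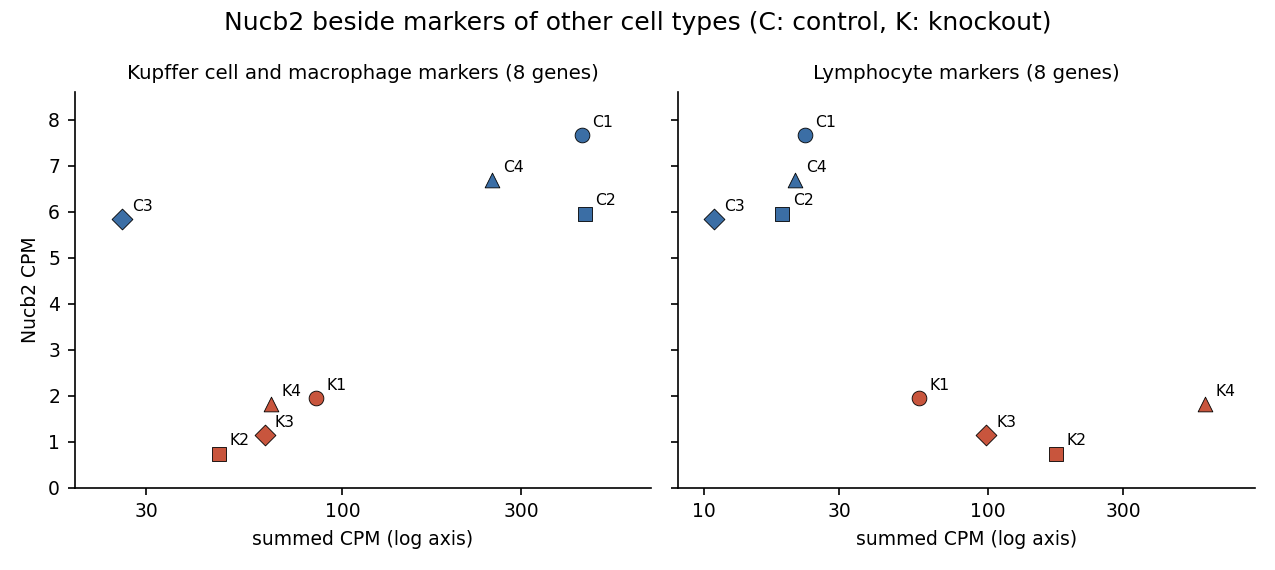
Nucb2 level in CPM against the summed CPM of 8 Kupffer cell and macrophage markers (left) and of 8 lymphocyte markers (right), on log x axes, for each control (C1 to C4, blue) and knockout (K1 to K4, red) library. Controls 1, 2 and 4 lie at higher Kupffer sums than all knockouts and control 3 at a lower one (25.8 CPM), and the lymphocyte sums of the groups do not overlap.

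Genes around the nucleobindins were examined through 9 lists of processing enzymes, calcium-handling proteins, binding partners and reported targets. Of their 143 genes, 105 were tested, and 0 rose and 0 fell at an adjusted p under 0.05 in edgeR, against 0.0342% of all genes. At an unadjusted p under 0.05 there were 19 of 105, against 14.0% of all genes, and 10 did not overlap between groups, against 7.08% of all genes. The median log2 fold change of the 105 was −0.06, beside −0.03 over all genes. DESeq2 called 5 of them (Angptl6, Angptl8, Gnai1, Igfbp1 and Ppargc1a), out of 269 calls in all, and limma-voom called 0.

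Release of nesfatin-1 from nucleobindin-2 is attributed to the neuroendocrine convertases PC1/3 and PC2. Their genes were hardly detected in liver: Pcsk1 held 0 to 1 and Pcsk2 0 to 3 counts per library. Pcsk1n and Scg5, genes of proteins that bind these convertases, held 0 and 1 counts over all 8 libraries. A count of 3, the limit that a count of 0 allows, corresponds to 0.129 to 0.213 CPM here. Furin, the convertase of the general secretory pathway, was measured at 93.6, 53.8, 38.4 and 72.5 CPM in controls 1 to 4 and at 48.6, 44.9, 58.9 and 57.7 CPM in knockouts 1 to 4. These groups overlapped (log2 fold change −0.30, SE 0.25). Of the 15 convertase and carboxypeptidase genes, 11 were tested, with a median log2 fold change of 0.08 and no group free of overlap. Pcsk6 (0.09, SE 0.17) and Pcsk7 (−0.00, SE 0.18), constitutive convertases, and Pcsk5 (−0.18, SE 0.26) had intervals that included 0. The smallest p belonged to Cpd, a carboxypeptidase of the trans-Golgi network, at 34.8 ± 5.91 and 26.2 CPM (log2 fold change −0.40, SE 0.16, adjusted p = 0.304 in edgeR), followed by Cpe, carboxypeptidase E (0.92, SE 0.43), and Pcsk4, a convertase known from germ cells (0.84, SE 0.45).

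The luminal calcium-binding proteins share the secretory pathway with the nucleobindins. All 13 genes of that list were tested, with a median log2 fold change of −0.08, and 9 values were negative. Its EF-hand members of the CREC family included Calu, calumenin (−0.32, SE 0.19), Sdf4, the Golgi protein Cab45 (−0.06, SE 0.15), Rcn1 (−0.07, SE 0.31) and Rcn2 (−0.15, SE 0.27). Reticulocalbin-3 (Rcn3), another of them, was at 1.98, 2.48, 1.37 and 3.50 CPM in controls and at 4.12, 4.19, 4.51 and 5.20 CPM in knockouts. These groups did not overlap (log2 fold change 0.95, SE 0.29), but the adjusted p of 0.226 in edgeR did not pass. Hspa5, the ER chaperone BiP, was at 512 ± 41.6 and 674 ± 31.6 CPM (0.40, SE 0.15, adjusted p = 0.295), and Efcab14 at 13.4 ± 1.65 and 10.6 ± 0.405 CPM (−0.35, SE 0.15, adjusted p = 0.332), also without overlap (n = 4 each). In all, 3 of the 13 did not overlap, against 7.08% of all genes. The calcium storage protein Calr (−0.08, SE 0.20) and the lectin chaperone Canx (−0.21, SE 0.15) had intervals that included 0.

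Calcium pumps and channels of the ER and Golgi gave 12 tested genes of 18, a median of −0.07 and no unadjusted p under 0.05. Atp2a2, the main ER calcium pump, had a log2 fold change of 0.04 (SE 0.16), and Atp2c1, the Golgi calcium and manganese pump, −0.16 (SE 0.15). Stim1, the ER calcium sensor, was at 15.99 ± 0.873 and 13.5 ± 1.17 CPM (n = 4 each) without overlap. It was 1 of the 12 without overlap, a share near the 7.08% of all genes.

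Nucleobindins bind G protein alpha subunits, and 10 of 13 genes in the list of these subunits and of GIV were tested (median −0.01). Gnai3 (82.7 ± 13.1 and 74.9 ± 13.5 CPM) and Gnai2 (41.4 ± 8.76 and 38.7 ± 3.66 CPM), the abundant inhibitory subunits, overlapped between groups (n = 4 each). The scarcer Gnai1 was at 0.387, 0.638, 1.19 and 0.499 CPM in controls 1 to 4 and at 1.74, 4.19, 1.63 and 3.85 CPM in knockouts 1 to 4. Its groups did not overlap (log2 fold change 2.08, SE 0.47), and its adjusted p was 0.127 in edgeR. Gna14, a Gq-class subunit, did not overlap either (2.05 ± 1.11 and 4.70 ± 0.958 CPM, log2 fold change 1.17, SE 0.37, adjusted p = 0.240). Gna13 of the G12 class overlapped (−0.48, SE 0.18). Gnai1 and Gna14 were the 2 of 10 genes without overlap, against 7.08% of all genes tested. In edgeR, 3 of the 10 had an unadjusted p under 0.05, against 14.0% of all genes. Ccdc88a, which encodes the activator GIV, was near the detection limit, at 0.651 ± 0.308 and 0.272 ± 0.255 CPM.

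**Figure D3:**
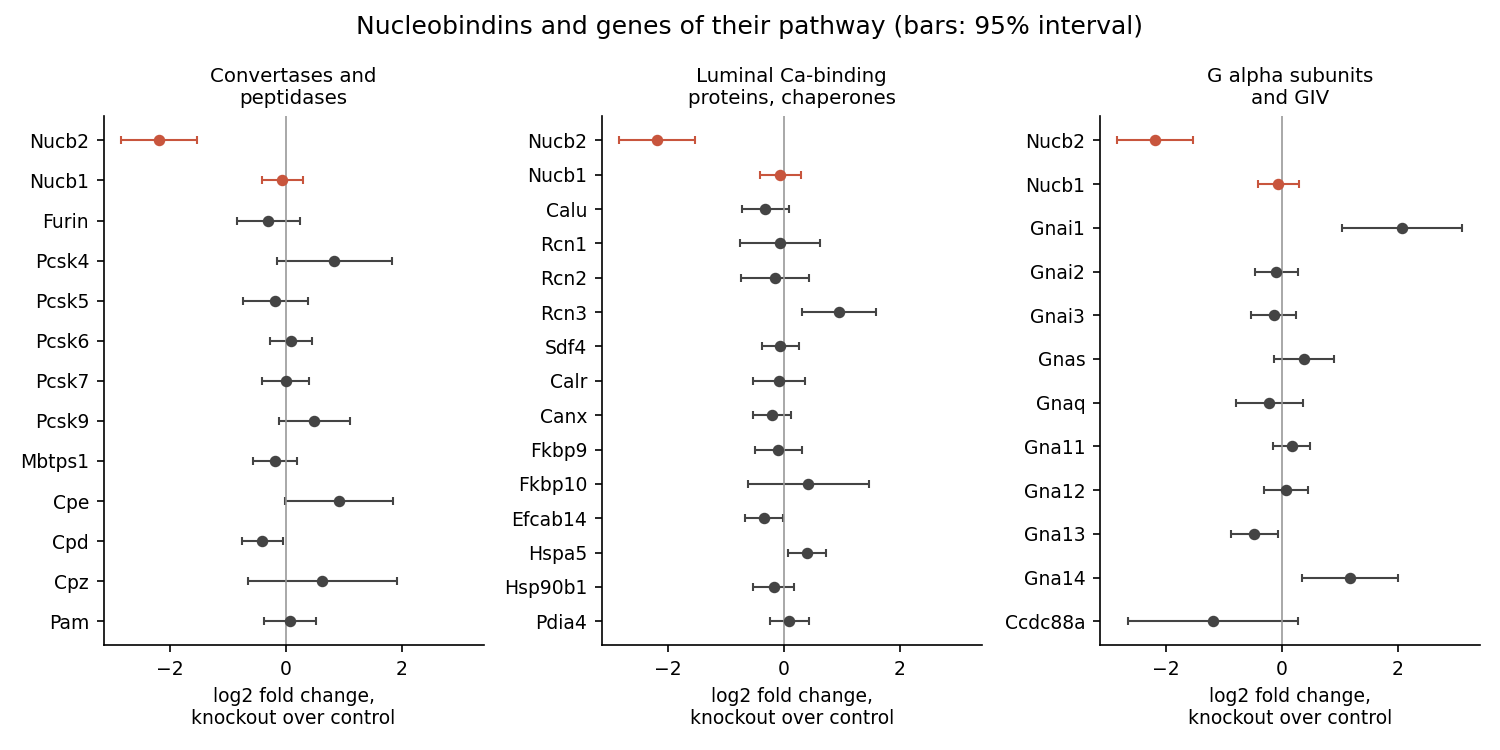
Log2 fold change of knockout over control with its 95% interval for Nucb2 and Nucb1 (red) and for the tested genes of 3 lists (grey): convertases and peptidases, luminal calcium-binding proteins and chaperones, and G alpha subunits with GIV. Nucb2 lies at −2.19, while Nucb1 lies at −0.06; Gnai1 is the grey point farthest to the right, at 2.08, without passing the adjusted threshold.

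Reported binding partners included Erap1, an ER aminopeptidase that trims antigenic peptides, and Tnfrsf1a, TNF receptor 1, which nucleobindin-2 has been described to bring together for receptor release. Erap1 was at 90.8 ± 30.4 and 63.2 ± 12.7 CPM (log2 fold change −0.52, SE 0.23, adjusted p = 0.352) and Tnfrsf1a at 64.6 ± 17.1 and 52.7 ± 3.22 CPM (−0.29, SE 0.20), both with overlap (n = 4 each). Ptgs1, cyclooxygenase-1, had a value of −0.85 (SE 0.49), and Ptgs2 held 0 to 1 counts per library. Of 9 partners, 8 were tested and 6 had negative values (median −0.20). In the ATF6 list, all 12 genes were tested, with a median of 0.06. Atf6 itself (−0.20, SE 0.19) and its protease genes Mbtps1 (−0.19, SE 0.17) and Mbtps2 (0.11, SE 0.19) had intervals that included 0. The smallest p in that list besides Hspa5 belonged to Syvn1 (0.80, SE 0.31) and Herpud1 (0.60, SE 0.23), factors of ER-associated degradation, at an adjusted p of 0.302 each in edgeR.

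Of 27 appetite peptides and receptors, 3 were tested, and 15 of the others held 0 counts in every library, among them the receptor genes Gpr3, Gpr6, Mc3r and Mc4r and the peptide genes Agrp and Oxt. Gpr12, an orphan receptor discussed as a nesfatin-1 receptor, held 0 to 6 counts per library. The tested members were Lepr, the leptin receptor (36.8 ± 15.3 and 11.9 ± 11.4 CPM, log2 fold change −1.62, SE 0.58, adjusted p = 0.272 in edgeR), Gcgr, the glucagon receptor (0.10, SE 0.18), and Avpr1a, the hepatic vasopressin receptor (−0.07, SE 0.23).

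Among 19 hepatic glucose and lipid genes reported to respond to nesfatin-1, all were tested and the median was −0.12. The gluconeogenic genes Pck1 (0.08, SE 0.25) and G6pc (0.18, SE 0.21) and the insulin signalling genes Insr (−0.17, SE 0.18) and Akt2 (−0.02, SE 0.15) had intervals that included 0. The smallest p belonged to Ppargc1a, a coactivator induced in fasting (10.8 ± 2.94 and 5.01 ± 1.23 CPM, log2 fold change −1.10, SE 0.25, adjusted p = 0.126 in edgeR). Its groups did not overlap, as was also the case for Prkaa1, the AMPK alpha 1 subunit (11.2 ± 0.755 and 9.04 ± 0.968 CPM). These were the 2 of 19 genes without overlap, against 7.08% of all genes tested. In edgeR, 5 of the 19 had an unadjusted p under 0.05, against 14.0% of all genes. Irs2, an insulin receptor substrate (−0.86, SE 0.26), and Fasn, fatty acid synthase (1.04, SE 0.42), overlapped. Of 23 secreted hepatokines, all were tested (median −0.05), and Angptl8 and Angptl6, angiopoietin-like proteins, were the 2 without overlap, a share near the 7.08% of all genes. Angptl8 was at 30.4 ± 9.85 and 80.1 ± 14.7 CPM and Angptl6 at 4.23 ± 0.532 and 8.62 ± 0.743 CPM (n = 4 each), both with an adjusted p of 0.0583 in edgeR. The hepatokine with the next smallest p was Igfbp1 (−1.43, SE 0.40).

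Likeness of pattern was measured as the root mean square difference between log2 CPM profiles over the 8 libraries, each centred on its own mean, among genes with a mean of at least 1 CPM. The genes nearest to Nucb2 among 10966 were Cish, a SOCS-family protein (difference 0.46 log2), Meiob, a meiotic single-strand DNA-binding protein (0.48), Slc37a1, a sugar-phosphate transporter family member (0.49), Oasl2, an oligoadenylate synthetase-like protein (0.52), and Herc6, a HECT-domain ubiquitin ligase (0.55), beside a median of 1.20 over all genes. Their own log2 fold changes were −1.61, −1.74, −2.73, −1.64 and −1.76, and none passed an adjusted p of 0.05. Cish went from 6.97 ± 1.45 to 2.27 ± 0.950 CPM, a level close to that of Nucb2. Knockout 1 was the highest knockout library in Nucb2 and in each of these 5 genes. Control 3 was the lowest control library in Nucb2 and in 4 of the 5, Cish being the exception. The genes were picked for a like profile over these libraries, which favours such a shared order, so it is no separate result. Nucb1 stood at place 4514 in likeness to Nucb2 (1.16). The genes nearest to Nucb1 were Dnajb12, an ER membrane chaperone (0.07), Clptm1 (0.07) and Ceacam1, a cell adhesion receptor (0.07), beside a median of 0.36 over all genes.

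**Figure D4:**
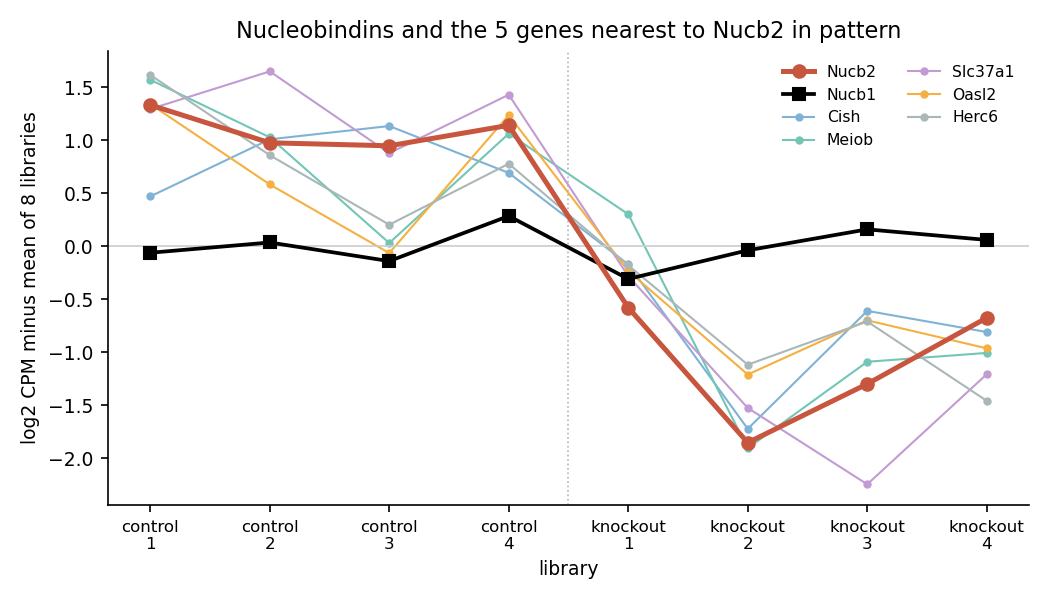
Log2 CPM minus each gene's mean over the 8 libraries for Nucb2 (thick red), Nucb1 (black) and the 5 genes nearest to Nucb2 in pattern, by library; the dotted line parts control from knockout. Nucb2 lies above 0 in all controls and below 0 in all knockouts, and Nucb1 stays between −0.31 and 0.29.

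None of the tested neighbours of the nucleobindins on chromosome 7 passed the threshold. The nearest genes with a row in the table on its left were Pik3c2a, a class II phosphoinositide kinase 60920 bases away (29.0 and 21.6 CPM, log2 fold change −0.43, SE 0.24), and Rps13, a ribosomal protein gene (0.08, SE 0.21). On its right, Xylt1 lay 840395 bases away and was below the filter, and Rps15a had a value of −0.18 (SE 0.17). Beside Nucb1 lay Dhdh, a dihydrodiol dehydrogenase 1653 bases away (99.9 and 101 CPM, 0.02, SE 0.19), and Gm45808, which was not tested, and on the other side Ppp1r15a, the stress-induced phosphatase subunit GADD34 (−0.23, SE 0.19), and Plekha4, also not tested. The serum amyloid genes Saa1 and Saa2, which passed the threshold together with Nucb2, lie nearer to Nucb1: 1.23 Mb separate Nucb1 from Saa1. Their log2 fold changes were −4.07 (SE 0.54) and −5.90 (SE 0.62).

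Because the groups did not overlap in Nucb2, leaving out a library could not turn its direction. The log2 fold changes were −1.98 to −2.38, and the adjusted p of Nucb2 crossed 0.05. With control 3 left out it was 0.00600, and with knockout 1 left out 0.0171. Dropping control 1, 2 or 4 gave 0.0986, 0.0507 or 0.131, and dropping knockout 2, 3 or 4 gave 0.1085, 0.184 or 0.148, all above the threshold in edgeR. The count of genes called across the table moved with it, from 0 without control 4, knockout 2, 3 or 4 to 324 without control 3. Nucb1 had values of −0.11 to 0.04 in the same fits.

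**Figure D5:**
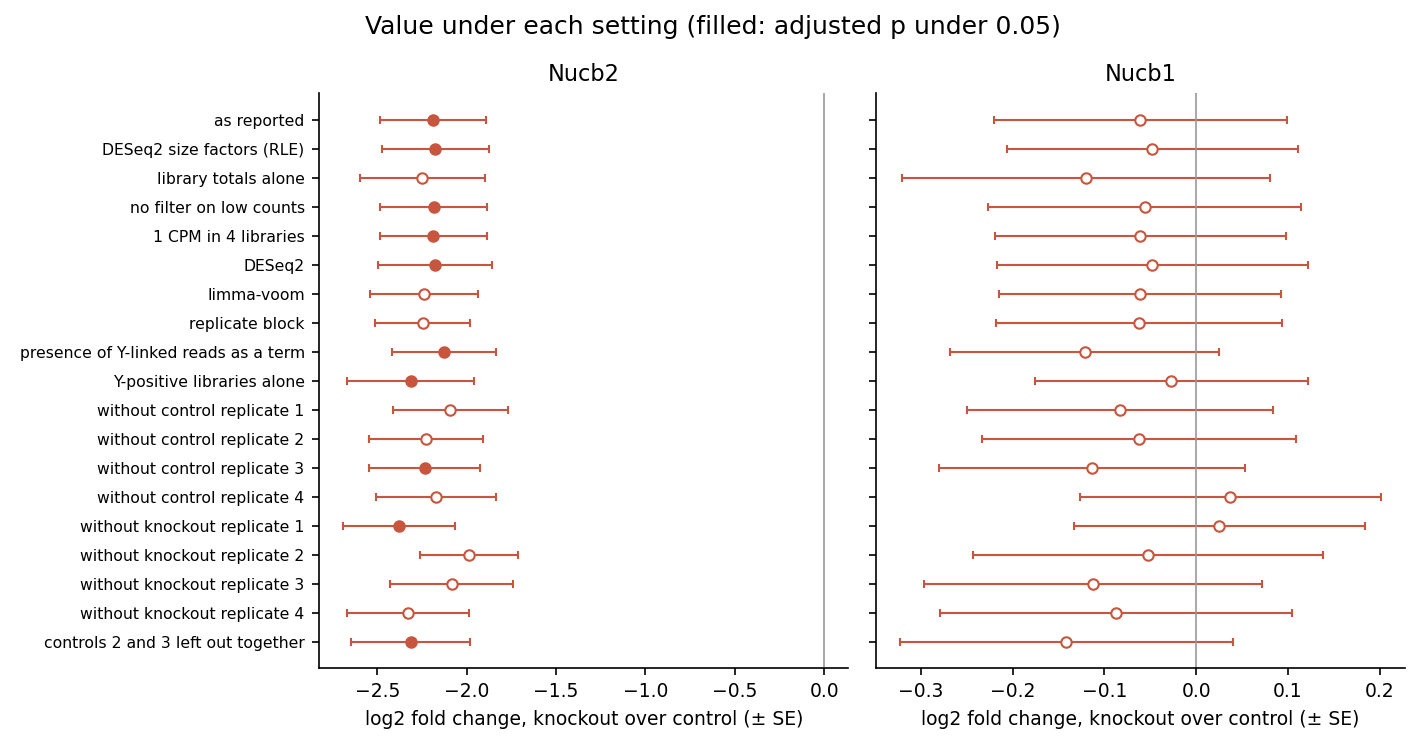
Log2 fold change (± SE) of Nucb2 (left) and Nucb1 (right) under each scaling, filter, tool, covariate and set of libraries; filled points have an adjusted p under 0.05, and the x axes differ. Nucb2 stays between −1.98 and −2.38, and Nucb1 between −0.14 and 0.04.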

How the data were processed

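RNA was isolated with Trizol and read on the Illumina Hiseq X10 platform, according to the labels. The submitters' processing notes name CASAVA 1.8, Bowtie, TopHat2 and GRCm38. The authors deposited each estimated count per gene and library in 1 table, without normalization, and 94.2% of the values were whole. How reads were counted, on which annotation and strand and with which filters, is not given in the sources used here. Each estimated count was rounded. Genes were filtered by filterByExpr and scaled by TMM, and edgeR 4.0.16 (R 4.3.3) compared the genotypes by its quasi-likelihood F-test, without covariates. P-values were adjusted by Benjamini and Hochberg's method over 11692 genes. CPM use the TMM-scaled library size. A standard error is the log2 fold change divided by the root of F. Log2 CPM profiles use a prior count of 2. Depth was 15998394 to 19474699 counts per library.

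The members, lists and tests were chosen with earlier results of these data known. Genes were named by rule: the members, called genes, up to 3 genes of the smallest p per list, genes whose role a sentence needs, the genes nearest in pattern (5 to Nucb2, 3 to Nucb1) and the 2 nearest genes on each side. A chi-square comparison of counts within each group found no pair of libraries alike within sampling noise: the most alike, knockouts 3 and 4, had a median of 1.26 per gene (mean 10.7). All 8 were kept apart. A library was said to hold Y-linked reads where 4 Y-linked genes (Uty, Kdm5d, Eif2s3y, Ddx3y) had more than 10 counts in sum. Alternatives were other scalings, filters, DESeq2 1.42.0, limma-voom (limma 3.58.1), covariates and libraries left out; leaving out controls 2 and 3 together was added after seeing the data. The fit was tested on simulated data. Promoter sequences are from RefSeq (GRCm38.p6; both members matched), transcripts from GENCODE M21 of the same build.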

Additional observations from a re-analysis of the deposited data

Results flagged for a closer look

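No library stood apart in Nucb1, in Nucb2 or in their ratio. Of 158 groups of 4 values examined, 12 (7.59%) held 1 library far from the other 3, where chance gives about 5%. Knockout 1 was the highest knockout for the summed hepatocyte markers (162000 CPM), the summed stellate markers (425.6 CPM), Reln (39.41 CPM) and Angptl8 (102.0 CPM), and the lowest for Fasn (844.0 CPM) and Hnf4a (266.9 CPM). Control 2 was the highest control for the summed hepatocyte markers (349900 CPM) and Reln (22.06 CPM). Control 3 was the highest control for the summed cholangiocyte markers (156.6 CPM) and Spp1 (143.5 CPM), and the lowest for Stat3 (46.77 CPM). Control 1 was the highest control for Lrat (16.65 CPM).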

How the results depend on the processing

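Nucb2 was lower in knockout under all 18 alternatives run, with log2 fold changes of −2.38 to −1.98 (−2.19 as reported). That direction follows from the lack of overlap over all 8 libraries and is no separate result. The adjusted p of Nucb2, 0.0469, lies close to the threshold. It rose above 0.05 with library totals alone (−2.25, adjusted p = 0.0823), in limma-voom (−2.24, 0.0670) and with the replicate block (−2.25, 0.0724), and ranged from 0.00600 to 0.184 with 1 library left out (−2.38 to −1.98); DESeq2 gave 1.44e-08. The cause was not tested. The log2 difference in the Nucb2 to Nucb1 ratio was −2.52 to −1.97, its direction likewise fixed by the lack of overlap. Nucb1 moved by less than its spread (−0.14 to 0.04), its sign turning without control 4 or knockout 1.

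The number of genes called, 4, became 5 with DESeq2 size factors, 1 with library totals alone, 62 without a filter, 8 with a filter of 1 CPM, 269 in DESeq2, 0 in limma-voom (1485 at an unadjusted p under 0.05), 0 with the replicate block (1773), 27 with a term for Y-linked reads, 125 in the libraries with such reads alone, 187 without controls 2 and 3, 0 to 324 with 1 library left out, and 79 at an adjusted p under 0.1. Pathway list members called, 0, became 2 without a filter, 5 in DESeq2, 2 in the libraries with Y-linked reads alone, 1 without controls 2 and 3, and 0 to 4 with 1 library left out. Same-numbered samples correlated in their deviations at 0.324, −0.247, 0.094 and 0.183, and controls 1 and 4 alone correlated best with their own number, so the numbers were not taken as pairs. With 11 to 37 counts of Nucb2 per knockout library, depth limits the precision of its knockout level.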

Other observations

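The annotation columns of the deposited table group the nucleobindins with other genes, and these groups were looked up after the values were seen. Both are listed under G-protein alpha-subunit binding, as are 36 other genes, of which 21 were tested; 15 of the 21 had negative log2 fold changes (median −0.29, beside −0.03 over all genes), 3 had an unadjusted p under 0.05 (against 14.0% of all genes) and 0 passed an adjusted p of 0.05 in edgeR. Both are also listed in the endoplasmic reticulum-Golgi intermediate compartment with 83 other genes, of which 73 were tested, with a median of 0.06, 18 at an unadjusted p under 0.05 (same background of 14.0%) and 0 past the adjusted threshold. Nucb2 alone of the paralogs is listed in the Golgi medial cisterna, with 16 other genes, all tested (median −0.11, 1 at an unadjusted p under 0.05, again beside 14.0%, and 0 past the adjusted threshold).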
